A study of Mus musculus with 6 samples.

Results

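Very long genes were examined in AML12 cells, a mouse hepatocyte line derived from hepatocytes of a mouse carrying a human TGF-alpha transgene, after hypoxia and reoxygenation (H/R). A gene was taken as very long when the distance from its first to its last exon base in the deposited tables was 400 kb or more on 1 chromosome and its read counts summed to 300 or more over the 6 libraries. These conditions were met by 97 of the 25330 genes in the tables. They were chosen by span and by that sum, and 95 of the 97 had at least 150 counts in each group. The other 2 were Cntnap5a (61 counts in the control and 418 in the H/R libraries) and Maml3 (415 and 107), which reached 300 mainly through 1 group. Of all 250 genes with such a span, the other 153 had fewer counts. The study compared 3 libraries of normoxic control cells, kept at 21% oxygen and 5% CO2, with 3 libraries of cells kept for 6 h at 1% oxygen and 5% CO2 in medium without serum and glucose and then reoxygenated for 2 h. All 6 libraries were from wild-type AML12 cells grown in DMEM/F12 with 10% fetal bovine serum, an ITS supplement and dexamethasone, so medium as well as oxygen differed between the groups during treatment. Nothing in the labels said whether replicates were separate cultures, so p-values measure the spread between these libraries only.

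The span of a gene sets how far RNA polymerase II has to travel before a full transcript is made, and for the longest mammalian genes this takes hours. Very long genes are mostly introns, and many use internal promoters that give shorter transcripts. In many tissues they encode cell adhesion, scaffold, cytoskeletal and signalling proteins. The counts here were of mRNA reads on exons, so they do not separate transcripts begun before the treatment from those begun during it. The comparison gives a view of these genes after 8 h of stress and recovery.

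Total counts were from 20438746 to 21854790 per library. The summed counts of 14 hepatocyte markers were 90553 to 99318 in the control and 128464 to 136774 in the H/R libraries, mostly from Krt8 and Krt18. Of the 14, 12 had 10 or more counts in every library, with Krt8, Krt18 and Hnf4a abundant, whereas Cebpa (90 counts in all) and Afp (161 in all) were low. Alb was at 542, 132 and 209 counts in control libraries 1, 2 and 3 and at 31 to 43 counts in the H/R libraries. Of 11 measured markers of other liver cells, Ptprc, Adgre1, Clec4f, Pecam1 and Lrat had at most 7 counts in all, and 2, Krt19 and Sox9 of biliary cells, had 10 or more in every library. The summed counts of the second list were 18545 to 21557 in the control and 34831 to 38283 in the H/R libraries, nearly all from Krt19. The part of these shifts in the results below was not tested, and in bulk RNA fewer cells of a type cannot be told apart from less RNA per cell. Control library 1, with the most Alb, was within 0.5 on the log2 scale of the mean of the other control libraries for 96 of the 97 very long genes, the exception being Dmd (-0.56).

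The very long genes shared an architecture beyond the span that defined them. Their median span was 523 kb, against 17.9 kb over the 14020 genes tested, and their median exonic length was 10605 bases, against 3512.5. Exons covered a median of 1.77% of the span (21.1% over all tested genes), and the median gene had 25 exons (8). The median GC content was 47.9% for the 94 with a value, against 49.7%. They were dispersed, with at most 9 on a chromosome (chromosome 3), 55 on the plus and 42 on the minus strand. Per exon length they were less abundant than most genes, with a median of 1.88 RPKM against 4.98. Mean control levels ran from 0.0868 RPKM for Cntnap5a to 45.3 RPKM for Oxr1, and Oxr1 was also highest after H/R (73.3 RPKM). Replicates were close, with a median coefficient of variation of 5.45% in the control and 5.33% in the H/R group.

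More of the very long genes were higher than lower after H/R. With edgeR (quasi-likelihood F-test, p adjusted by Benjamini and Hochberg over the 14020 genes tested), 50 of the 97 were higher, 28 were lower and 19 did not pass an adjusted p of 0.05. The 78 that passed are 80.4%. The share called was 62.8% over all tested genes (31.0% higher and 31.8% lower), and 69.5% among the 11430 genes that also had 300 or more summed counts (35.1% higher and 34.3% lower). The normalised counts of the groups did not overlap for 48 genes that were higher and 30 that were lower, against 32.5% and 33.5% of all tested genes (65.9% together) and 36.3% and 35.6% of genes at that abundance (71.9%). Past a 2-fold change as well, 7 (7.22%) were higher and 3 (3.09%) were lower, against 4.25% and 4.27% of all tested genes (8.52% together) and 3.60% and 2.87% of genes at that abundance (6.47%). Cntnap5a is among these 7 and Maml3 among these 3, although both reached 300 counts mainly through the group where they were high. The median log2 fold change of the very long genes was 0.22, with quartiles at -0.27 and 0.53, and 60 of 97 values were above 0. The median over all tested genes was -0.01. Most of the changes were below 2-fold in size. When libraries were scaled by their totals alone, the median of all tested genes moved to -0.12, and the very long genes divided into 40 higher and 33 lower with a median of 0.12. Without control library 1, 48 of the 50 and 25 of the 28 calls were kept.

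**Figure D1:**
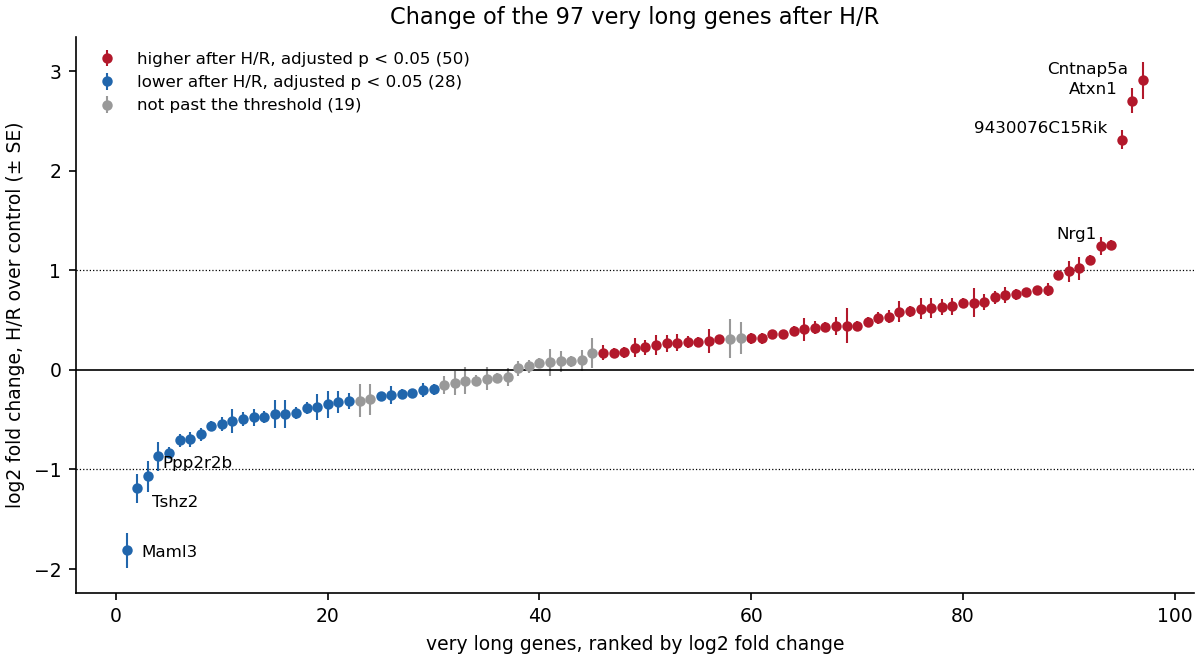
The 97 very long genes in order of log2 fold change (H/R over control, y axis), each with its SE from the edgeR fit of 3 against 3 libraries; dotted lines mark 2-fold. The right end rises to 2.91 (Cntnap5a), the left end falls to -1.81 (Maml3), and 87 genes lie without a 2-fold call.

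Short genes of similar abundance, spanning under 10 kb and with summed counts from 593 to 12317 (the 10th to 90th percentile of the very long genes), numbered 2273. Their median log2 fold change was -0.02, with 681 higher, 803 lower and 789 not past the threshold, so the 2 medians differed by 0.25. Among genes with 300 or more counts the median was -0.02 for spans under 10 kb, -0.03 for 10 to 50 kb, 0.08 for 50 to 100 kb, 0.08 for 100 to 200 kb, 0.12 for 200 to 400 kb and 0.22 for 400 kb or more. The interquartile ranges of all 6 classes overlapped widely. Within the very long genes the order was the same, with a median of 0.08 for the 41 genes from 400 to 500 kb, 0.22 for the 47 from 500 kb to 1 Mb and 0.42 for the 9 of 1 Mb or more. However, these 9 include Fgfr2, whose value is that median, and Chd1, which span only 104 kb and 67.6 kb in RefSeq. They also include the read-through model Gm20388 and Gm37240, which has no RefSeq match. The rise to the last class therefore rests partly on spans that differ between annotations. Over the 97 genes Spearman's rho between span and log2 fold change was 0.19, as a description only, since these genes share the same 6 libraries.

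Abundance divided the very long genes. The 23 with 300 to under 1000 summed counts had a median log2 fold change of -0.30, with 5 higher and 10 lower (21.7% and 43.5%), and the 1083 short genes in that range had a median of -0.05, with 20.9% higher and 26.9% lower. From 1000 to under 3000 counts the medians were 0.26 for 31 very long genes (19 higher, 6 lower) and -0.01 for short genes (30.6% higher, 33.4% lower). From 3000 to under 10000 counts they were 0.18 for 28 very long genes (15 higher, 9 lower) and -0.05 for short genes (32.8% higher, 41.5% lower). At 10000 counts or more they were 0.39 for 15 very long genes (11 higher, 3 lower) and 0.06 for short genes (45.4% higher, 32.8% lower). The very long genes were thus above the short genes in the 3 upper ranges and below them in the lowest. Medians also went from below 0 in the lowest range to above 0 in the highest for spans of 50 to 100 kb (-0.19 and 0.17) and of 100 to 200 kb (-0.14 and 0.18), so this split was not confined to the very long genes. For spans of 200 to 400 kb, the class nearest to them, the lowest range was not below 0 (0.004) and the highest was at 0.38.

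**Figure D2:**
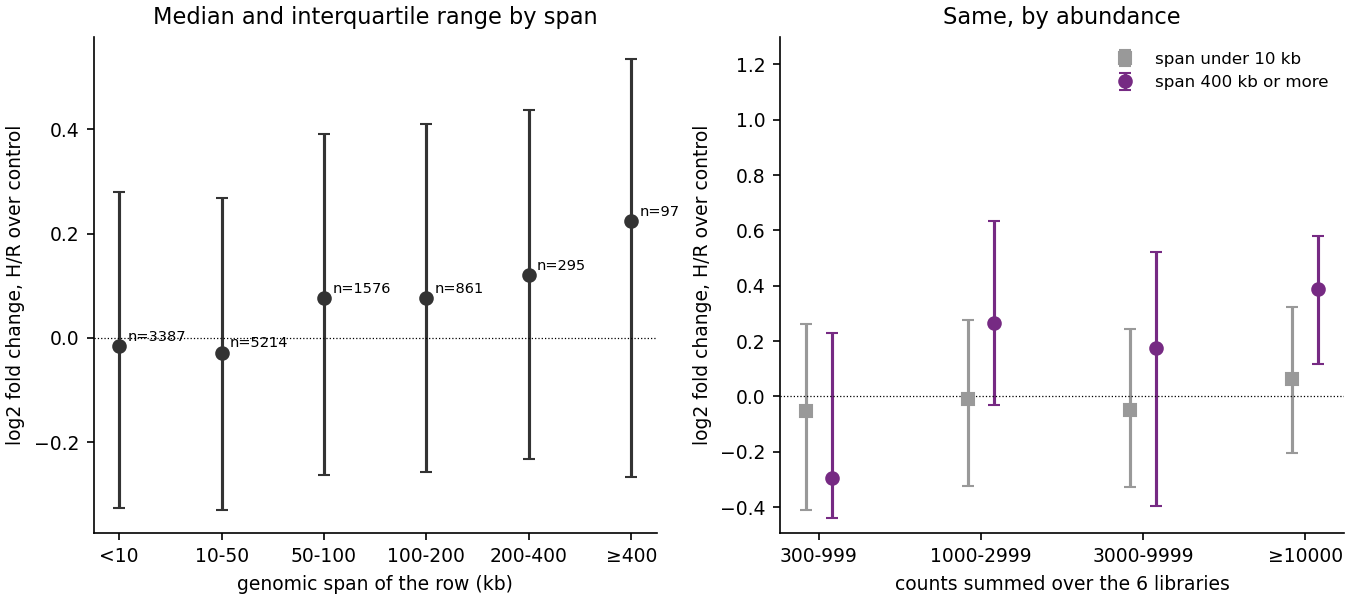
Median log2 fold change (H/R over control, y axes) with the interquartile range as bars, by genomic span in kb (left) and by counts summed over the 6 libraries (right) for genes under 10 kb (squares) and of 400 kb or more (circles). The left medians run from -0.02 under 10 kb to 0.22 at 400 kb or more, and on the right the circles lie below the squares under 1000 counts and above them in the other ranges.

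The share of a library's reads that fell on very long genes needs no scaling factor, and it rose after H/R. It was 0.400%, 0.408% and 0.411% in the control libraries and 0.469%, 0.473% and 0.468% in the H/R libraries, with no overlap. The means were 0.406% ± 0.00566 and 0.470% ± 0.00232 (SD, n = 3). Dst had the most reads of these genes, and without it the means were 0.364% and 0.416%. A few other abundant genes weighed heavily in the rise as well. Over the 3 libraries of each group, Dst went from 27202 counts in the control to 33627 after H/R, and Oxr1 from 15016 to 23747. Ptprk went from 8225 to 12825, Tenm4 from 5453 to 9550 and Nrg1 from 3081 to 6666, while 28 of the 97 genes were lower. The short genes took 5.84% ± 0.102 of the control and 5.43% ± 0.0694 of the H/R reads. Relative to the control mean, the median very long gene stood at 0.16, 0.23 and 0.16 on the log2 scale in H/R libraries 1, 2 and 3, and the median short gene at -0.03, -0.04 and -0.03.

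Cntnap5a, Atxn1 and 9430076C15Rik had the largest increases, and all had low control levels. Cntnap5a (chr1:115684756-116587323, plus strand of GRCm38, as all coordinates here) encodes a neurexin-family adhesion protein best known from neurons. It had normalised counts of 18.9, 18.5 and 20.7 in the control libraries and 124, 154 and 159.9 in the H/R libraries. Every H/R value was more than 5 times every control value (log2 fold change 2.91 ± 0.19, SE), and the mean RPKM was 0.0868 in the control and 0.608 in the H/R group. Since Cntnap5a reached the count minimum mainly through its H/R libraries, this difference is a description. Atxn1 (chr13:45549758-45964991, minus strand), the ataxin-1 gene, whose product binds transcriptional repressors, had 50.2, 41.9 and 58.4 in the control libraries and 327, 331 and 326 in the H/R libraries (log2 fold change 2.70 ± 0.12, SE, edgeR adjusted p = 8.82e-20). The H/R libraries were close together, and all lay far above the control libraries.

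The row named 9430076C15Rik (chr6:53287270-53700376, plus strand) corresponds to Creb5 in RefSeq, which encodes a bZIP factor that binds cAMP response elements. Its normalised counts were 103, 95.6 and 102 in the control libraries and 528, 514 and 453 in the H/R libraries, without overlap (log2 fold change 2.31 ± 0.10, SE, edgeR adjusted p = 1.27e-20). RefSeq on GRCm38.p6 places starts of Creb5 413 kb and 127 kb from the 3′ end of the row. Both promoters are shown, since either could give the counted transcripts, as 250 bases before to 50 bases after the start, with matches to the searched motifs in capitals.
Creb5, far start (chr6:53287053-53287352, plus strand): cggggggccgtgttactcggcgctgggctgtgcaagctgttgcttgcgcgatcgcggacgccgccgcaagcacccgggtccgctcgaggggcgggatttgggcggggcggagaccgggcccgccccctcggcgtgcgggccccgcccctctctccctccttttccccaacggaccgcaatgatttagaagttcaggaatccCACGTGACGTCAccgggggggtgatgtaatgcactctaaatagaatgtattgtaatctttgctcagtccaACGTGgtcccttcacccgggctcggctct
Creb5, near start (chr6:53573124-53573423, plus strand): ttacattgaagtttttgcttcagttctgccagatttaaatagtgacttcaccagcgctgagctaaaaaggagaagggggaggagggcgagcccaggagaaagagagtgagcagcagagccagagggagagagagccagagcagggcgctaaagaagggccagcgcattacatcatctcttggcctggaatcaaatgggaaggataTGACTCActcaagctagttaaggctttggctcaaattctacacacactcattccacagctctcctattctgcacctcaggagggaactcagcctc
The capitals in the far promoter are ACGTG, the core that hypoxia-inducible factors recognise, and TGACGTCA, the cAMP response element, which overlap each other in 1 run, and a further ACGTG downstream of the start. In the near promoter they are TGANTCA, the AP-1 motif. The counts do not separate the transcripts from these starts. The promoters of Mast4 and Lpp, the next most increased genes with a RefSeq start, held none of the searched motifs and are not printed.

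Signalling and adhesion genes followed. Nrg1 (chr8:31814551-32884029, minus strand), a ligand of ErbB receptors, had normalised counts of 996, 1001 and 944 in the control libraries and 2281, 2422 and 2300.4 in the H/R libraries (log2 fold change 1.25 ± 0.05, SE, edgeR adjusted p = 1.19e-21). With 980.4 ± 31.3 in the control and 2335 ± 76.5 in the H/R group (SD, n = 3), it was the most abundant of the 7 genes that rose past 2-fold. Lpp, a LIM protein of focal adhesions, had 908, 950.0 and 904 in the control libraries and 1873, 2067 and 1978 in the H/R libraries (log2 fold change 1.10 ± 0.05, SE, edgeR adjusted p = 1.65e-19). Mast4, a microtubule-associated serine/threonine kinase, had 159, 152 and 167 in the control libraries and 405, 363 and 365 in the H/R libraries (log2 fold change 1.24 ± 0.09, SE, edgeR adjusted p = 7.44e-14). None of these 3 genes overlapped between groups. Camk1d, a calmodulin-dependent kinase, had 103, 126 and 110.1 in the control libraries and 193, 256 and 238 in the H/R libraries (log2 fold change 1.02 ± 0.12, SE, edgeR adjusted p = 4.03e-09). Elmo1, which acts with DOCK proteins in Rac activation, had 151, 146 and 185 in the control libraries and 352, 308 and 297 in the H/R libraries and fell just short of 2-fold (log2 fold change 0.99 ± 0.10, SE, edgeR adjusted p = 2.87e-10). In both genes the lowest H/R library was above the highest control library.

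Maml3 (chr3:51685907-52105076, minus strand), a Mastermind-like coactivator of Notch, had the lowest log2 fold change. It had normalised counts of 114, 143 and 139 in the control libraries and 46.3, 30.2 and 36.0 in the H/R libraries (log2 fold change -1.81 ± 0.17, SE), and its highest H/R value was under 50 while its lowest control value was over 100. It reached the count minimum mainly through its control libraries, so this difference is a description too. Tshz2, a teashirt zinc-finger factor, had 124, 132 and 139 in the control libraries and 59.2, 51.8 and 62.0 in the H/R libraries (log2 fold change -1.19 ± 0.15, SE, edgeR adjusted p = 1.12e-08), although 0.65 of its exon length is shared with exons of Gm26883. Ppp2r2b, a regulatory subunit of protein phosphatase 2A, had 139, 123 and 136 in the control libraries and 80.8, 55.003 and 54.0 in the H/R libraries (log2 fold change -1.07 ± 0.15, SE, edgeR adjusted p = 2.33e-07). These 3 were the only very long genes lower past 2-fold, and all had fewer than 600 summed counts. Ttc28 (chr5:110879803-111289780, plus strand), a tetratricopeptide repeat protein, had 128, 120.0 and 126 in the control libraries and 56.0, 72.3 and 75.9 in the H/R libraries (log2 fold change -0.87 ± 0.15, SE, edgeR adjusted p = 3.79e-06).

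The promoters of Maml3 and Ttc28 are shown because these were among the most decreased genes and had a RefSeq start. Their starts lie 419 kb and 410 kb from the 3′ end of the row, and a transcript crosses that distance only if it ends there. In GENCODE every coding transcript of Ttc28 spanned 400 kb or more, which was not so for Maml3.
Maml3 (chr3:52104957-52105256, minus strand): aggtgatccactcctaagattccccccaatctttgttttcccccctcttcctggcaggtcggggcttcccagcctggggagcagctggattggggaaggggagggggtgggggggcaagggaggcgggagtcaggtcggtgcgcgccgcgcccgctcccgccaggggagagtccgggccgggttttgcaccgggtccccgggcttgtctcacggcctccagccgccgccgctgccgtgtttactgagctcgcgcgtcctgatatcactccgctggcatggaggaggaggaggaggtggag
Ttc28 (chr5:110879553-110879852, plus strand): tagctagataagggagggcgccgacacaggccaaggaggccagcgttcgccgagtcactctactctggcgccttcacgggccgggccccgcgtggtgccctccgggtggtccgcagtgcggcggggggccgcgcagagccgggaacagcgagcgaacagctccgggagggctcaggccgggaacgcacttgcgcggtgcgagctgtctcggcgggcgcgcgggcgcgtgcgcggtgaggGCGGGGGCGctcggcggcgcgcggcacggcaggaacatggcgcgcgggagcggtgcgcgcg
Maml3 holds none of the 5 motifs searched, and the capitals in Ttc28 mark GCGGGGGCG, the motif of EGR factors. The promoter of Tshz2, which fell more than Ttc28, also held none of the 5 motifs and is not printed. The search covered both strands for the hypoxia-inducible factor core ACGTG, the AP-1 motif TGANTCA, the cAMP response element TGACGTCA, the EGR motif GCGGGGGCG and the TATA box TATAAA. In the farthest RefSeq promoter of 67 very long genes, ACGTG was in 9 (13.4%, against 19.6% of 27026 promoters of the same length), TGANTCA in 4 (5.97%, against 7.92%), TGACGTCA in 1 (1.49%, against 1.85%), GCGGGGGCG in 5 (7.46%, against 2.90%) and TATAAA in 5 (7.46%, against 14.2%). ACGTG was in 7 of the 37 promoters of genes that were higher and in 2 of the 17 of genes that were lower. A match is a run of letters only.

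Genes of higher abundance also fell. Slc7a11, the cystine/glutamate antiporter subunit xCT, had normalised counts of 1053, 1118 and 1069 in the control libraries and 562, 613 and 645 in the H/R libraries (log2 fold change -0.83 ± 0.06, SE, edgeR adjusted p = 2.42e-14). The transcription factor gene Nfib had 545, 629 and 542 in the control libraries and 376, 339.7 and 342 in the H/R libraries (log2 fold change -0.70 ± 0.08, SE, edgeR adjusted p = 8.42e-10). Syne1, which encodes the nuclear envelope spectrin-repeat protein nesprin-1, had 798, 811 and 822 in the control libraries and 528, 548 and 478 in the H/R libraries (log2 fold change -0.65 ± 0.06, SE, edgeR adjusted p = 5.16e-11). The groups of all 3 genes were well apart. Dlgap1, a scaffold of synapses, had 734, 822 and 836 in the control libraries and 485, 487 and 493 in the H/R libraries and did not overlap either (log2 fold change -0.71 ± 0.06, SE, edgeR adjusted p = 1.03e-11).

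**Figure D3:**
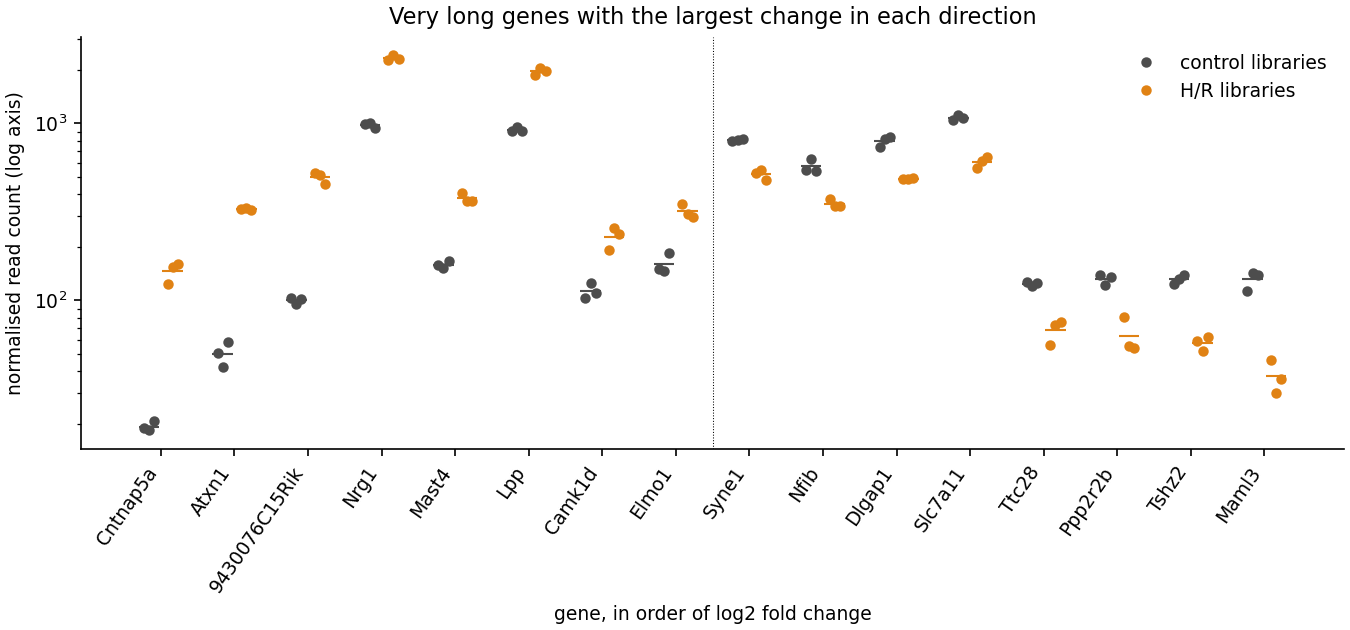
Normalised read counts (y axis, log scale) of the 8 very long genes with the largest increase (left) and the 8 with the largest decrease (right) in each of the 3 control (grey) and 3 H/R (orange) libraries, with the group means as lines. The groups are apart for each gene, from Cntnap5a at 18.5 to 20.7 in the control and 124 to 160 in the H/R libraries to Maml3 at 114 to 143 and 30.2 to 46.3.

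The very long genes were then read by role, beside 31.0% higher and 31.8% lower over all tested genes, 35.1% and 34.3% at 300 or more counts, and 51.5% and 28.9% over the very long genes. The lists are short and were chosen with earlier results of these data known, so their shares are descriptions. Differences between them were not tested. Among 19 GTPase regulators, kinases and signalling genes, 12 were higher (63.2%), 5 lower (26.3%) and 2 not past the threshold, with a median log2 fold change of 0.42. Agap1, a GTPase-activating protein for Arf, had normalised counts of 1626, 1705 and 1751 in the control libraries and 2729, 2697 and 2670.2 in the H/R libraries (log2 fold change 0.67 ± 0.04, SE, edgeR adjusted p = 4.48e-15). The members of the DOCK family of Rac and Rap activators went the other way. Dock1 had 1948, 1859 and 1836 in the control libraries and 1561, 1616 and 1515 in the H/R libraries (log2 fold change -0.27 ± 0.05, SE, edgeR adjusted p = 8.29e-06), and Dock4 had 959, 825 and 886 in the control libraries and 685, 703 and 659 in the H/R libraries (log2 fold change -0.38 ± 0.06, SE, edgeR adjusted p = 1.45e-06). Neither overlapped between groups. The kinases Tnik (0.81 on the log2 scale) and Prkca (0.17) were higher, as was the fibroblast growth factor family gene Fgf13 (0.59), while Prkce (-0.13) did not pass.

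Of 11 adhesion, polarity and junction genes, 9 were higher (81.8%, against 31.0% over all tested genes and 51.5% over the very long genes) and 2 did not pass, with a median of 0.41. This list was abundant, with a median of 7904 summed counts. Of the very long genes, 53.6% were higher at 3000 to under 10000 counts and 73.3% at 10000 or more. Tenm4, a teneurin of the cell surface, had 1631, 1758 and 1816 in the control libraries and 3423, 3351 and 3263 in the H/R libraries (log2 fold change 0.95 ± 0.05, SE, edgeR adjusted p = 7.45e-19). Ptprk, a receptor tyrosine phosphatase at cell contacts, had 2605, 2584 and 2659.6 in the control libraries and 4459, 4513 and 4497 in the H/R libraries (log2 fold change 0.78 ± 0.04, SE, edgeR adjusted p = 8.62e-18). Both were higher in every H/R library than in any control library. The junction scaffold Magi1 had 2265, 2309 and 2374 in the control libraries and 2238, 2185 and 2158 in the H/R libraries (log2 fold change -0.08 ± 0.04, SE, edgeR adjusted p = 0.121) and passed as lower with library totals (-0.18), upper quartile scaling (-0.15) and an offset for GC and length (-0.13). The polarity protein Pard3 had a log2 fold change of -0.11. The neural adhesion gene Ntm (0.75), the glypican Gpc6 (0.64) and the cadherin Cdh13 (0.41) were higher.

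Cytoskeletal genes were divided, with 6 of 10 higher (60.0%), 3 lower (30.0%) and a median of 0.33. Dst, the dystonin gene, which encodes linkers between cytoskeletal filaments, had the most counts of any very long gene, at 8779, 9009 and 8184 in the control libraries and 12014, 12021 and 11318 in the H/R libraries (log2 fold change 0.44 ± 0.05, SE, edgeR adjusted p = 1.73e-10). Utrn, which encodes utrophin, was higher, at 3329, 3389 and 3287 in the control libraries and 4054, 4412 and 4337 in the H/R libraries (log2 fold change 0.36 ± 0.04, SE, edgeR adjusted p = 6.86e-09). Its relative Dmd, which encodes dystrophin, had 116, 169 and 172 in the control libraries and 115, 127 and 117 in the H/R libraries (log2 fold change -0.34 ± 0.14, SE, edgeR adjusted p = 0.0277). Here control library 1 lay among the H/R libraries, and Dmd lost its call without control library 2 or 3 or H/R library 1 or 3. The formin genes Diaph2 (0.76) and Diaph3 (0.43) were higher and the ankyrin Ank3 (-0.23) was lower. Snd1, which stood on this list but encodes a nuclease of RNA-induced silencing, had 4947, 4779 and 5236 in the control libraries and 6263, 6159 and 6143 in the H/R libraries (log2 fold change 0.31 ± 0.04, SE, edgeR adjusted p = 6.14e-08).

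Of 8 membrane trafficking genes, 5 were higher (62.5%) and 2 lower, with a median of 0.42. The exocyst subunits, which tether secretory vesicles, were higher in all H/R libraries than in any control library, Exoc4 with 1699, 1697 and 1603 in the control libraries and 2316, 2402 and 2277 in the H/R libraries (log2 fold change 0.48 ± 0.05, SE, edgeR adjusted p = 2.90e-11) and Exoc6b with 1925, 1992 and 1730.4 in the control libraries and 2532, 2451 and 2415 in the H/R libraries (log2 fold change 0.39 ± 0.05, SE, edgeR adjusted p = 1.44e-08). The vesicle gene Lrba had 1461, 1459 and 1487 in the control libraries and 1504, 1635 and 1484 in the H/R libraries (log2 fold change 0.07 ± 0.05, SE, edgeR adjusted p = 0.231), and its sign changed with the scaling. Vps13b (-0.20) and the Rab GTPase regulator Tbc1d5 (-0.47) were lower. Of 6 metabolic, glycosylation and transport genes, 4 were higher (66.7%) and none lower, with a median of 0.25. However, this list left out the antiporter gene Slc7a11, which was lower (-0.83). Oxr1, which protects against oxidative damage, had 4765, 4783 and 4783 in the control libraries and 8628, 8274 and 8059 in the H/R libraries, the second-largest count of the very long genes in the H/R libraries, without overlap (log2 fold change 0.80 ± 0.04, SE, edgeR adjusted p = 4.66e-18). Gmds, which makes GDP-fucose, had 945, 809.5 and 855 in the control libraries and 1109, 1018 and 1036 in the H/R libraries (log2 fold change 0.28 ± 0.06, SE, edgeR adjusted p = 1.12e-04). The zinc transporter gene Slc39a11 had 410.0, 412 and 382 in the control libraries and 447, 469 and 492 in the H/R libraries (log2 fold change 0.23 ± 0.07, SE, edgeR adjusted p = 0.00823), and it lost its call under library totals or upper quartile scaling.

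Of 14 transcription and chromatin genes, 5 were higher and 6 lower (35.7% and 42.9%, near the 35.1% and 34.3% of genes with 300 or more counts), with a median of 0.00. Foxp1, a forkhead factor, had 1458, 1388 and 1336 in the control libraries and 1655, 1751 and 1679 in the H/R libraries (log2 fold change 0.28 ± 0.05, SE, edgeR adjusted p = 5.81e-06). The zinc-finger gene Zfp407 had 874, 910.0 and 873 in the control libraries and 654, 618 and 695 in the H/R libraries (log2 fold change -0.43 ± 0.06, SE, edgeR adjusted p = 8.99e-08). Zbtb20, a repressor active in liver, had 379.7, 561 and 401 in the control libraries and 486, 539 and 639 in the H/R libraries (log2 fold change 0.31 ± 0.20, SE, edgeR adjusted p = 0.237). The Zbtb20 groups overlapped through control library 2, and without that library it was called, at 0.51 on the log2 scale. Maml2 (-0.52), the relative of Maml3, was also lower. The list of RNA, ubiquitin and genome maintenance genes had 4 members, and Celf2, an RNA-binding regulator of splicing, was the 1 that was higher, at 288, 283 and 294 in the control libraries and 434, 478 and 472 in the H/R libraries (log2 fold change 0.68 ± 0.08, SE, edgeR adjusted p = 2.91e-09). Lower were Dlgap1, whose scaffold role is not that of the list's name, Ttc28 and the F-box gene Fbxl17, with 146, 133 and 129 in the control libraries and 106, 114 and 94.9 in the H/R libraries (log2 fold change -0.37 ± 0.13, SE, edgeR adjusted p = 0.0118). Fbxl17 lost its call without control library 1 or H/R library 3. The 25 genes on none of these lists had 8 higher and 9 lower (32.0% and 36.0%), with a median of 0.01. They included the antiporter gene Slc7a11, the chromatin remodeller Chd1 and the adhesion gene Cntnap5a, so the role lists were not complete.

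The longest spans were not all those of a single transcription unit. Gm20388 (4435 kb, chr8:119910841-124345722, plus strand) is a read-through model whose exons all lie within exons of Galnt2, Usp10 and 1810008B01Rik, with 1 gap that takes 98.9% of its span. Its counts, 2035, 1813 and 2001 in the control libraries and 1668, 1595 and 1688 in the H/R libraries, cannot be assigned to 1 gene (log2 fold change -0.24 ± 0.05, SE, edgeR adjusted p = 6.85e-05). Fgfr2, a fibroblast growth factor receptor, spanned 2961 kb in the tables but 104 kb in RefSeq, whose start lies 2857 kb inside the row. It had 479, 505 and 517 in the control libraries and 631, 685 and 698 in the H/R libraries (log2 fold change 0.42 ± 0.06, SE, edgeR adjusted p = 6.92e-07). Chd1, a chromatin remodeller, spanned 1690 kb in the tables and 67.6 kb in RefSeq, and had 4093, 4467 and 3998 in the control libraries and 5394, 5255 and 5417 in the H/R libraries (log2 fold change 0.36 ± 0.04, SE, edgeR adjusted p = 9.21e-09). Dmd (2257 kb) and Pde4d (1504 kb) spanned over 1 Mb in RefSeq as well, at 2390 kb and 1302 kb. Pde4d, a cAMP phosphodiesterase, had 68.2, 81.9 and 78.1 in the control libraries and 107, 130.5 and 127 in the H/R libraries (log2 fold change 0.67 ± 0.14, SE, edgeR adjusted p = 1.16e-04).

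In RefSeq, 88 of the very long genes also spanned 400 kb or more, and of these 47 were higher and 22 lower, with a median of 0.24. Slc7a11 (551 kb in the tables, 134 kb in RefSeq), Nfib (416 and 217 kb) and Zfp407 (462 and 382 kb) were, with Fgfr2 and Chd1, the 5 that did not, and 4 had no RefSeq match. In 16 genes a single gap between exons took 50% or more of the span, and their median was -0.27, with 7 higher and 8 lower. Exons of 33 genes overlapped exons of another gene, by at least 50% of the exon length in 7. Whether reads were counted by strand is not given in the sources used here, so values of overlapping genes are uncertain. Gm37013 and Gm37388, which overlap the clustered protocadherin genes, had identical counts in every library and are 1 measurement listed under both names. Both are counted among the 28 lower genes. Schip1 and Gm21949 share 0.84 of the exon length of Gm21949. Their counts were close, at 3191 and 3104 in the control and 3608 and 3509 in the H/R libraries, and both are counted among the 50 higher genes.

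**Figure D4:**
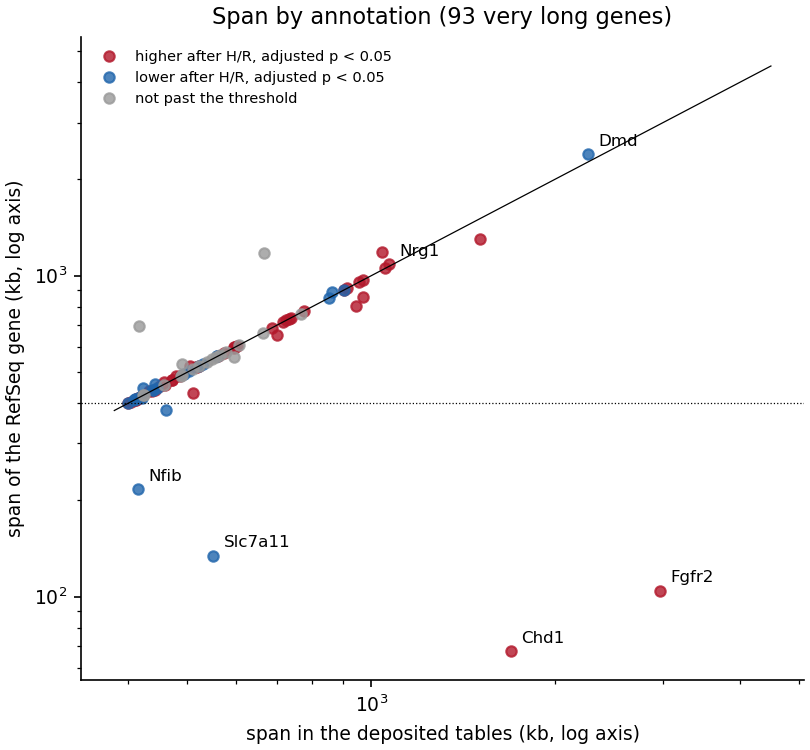
Span in the deposited tables (x axis, kb, log scale) against span in RefSeq (y axis, kb, log scale) for the 93 very long genes with a RefSeq match, coloured by the edgeR call, with the line of equal span and a dotted line at 400 kb. Fgfr2 (2961 against 104 kb), Chd1 (1690 against 67.6 kb), Slc7a11, Nfib and Zfp407 lie below 400 kb in RefSeq, and 88 genes lie above it.

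A very long gene need not be transcribed over its whole length. RefSeq gave 106 starts for 67 of the genes. In 41 every listed start was 400 kb or more from the 3′ end of the row, and 21 of these were higher and 12 lower, with a median of 0.17. The distance runs to the end of the row and not of a transcript. Slc7a11 is thus among the 41 although its RefSeq span is under 400 kb, and the start of Snhg14 lies 474 kb upstream of its row. In the other 26 some start was nearer, and 16 were higher and 5 lower, with a median of 0.30. Dst had listed starts 148 kb and 297 kb from its 3′ end, Lpp at 271 kb and 599 kb, and Dmd at 158 kb and 2257 kb. In GENCODE, 25 very long genes had only coding transcripts of 400 kb or more, and 11 of these were higher and 8 lower, with a median of 0.08. Cntnap5a, Atxn1 and Ttc28 were among them, and so were Gm20388, Gm37013, Gm37388 and Gm42416, whose exons all lie in other genes. The 51 genes with a coding transcript under 100 kb had 32 higher and 10 lower, with a median of 0.29. The difference between these subsets was not tested.

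**Figure D5:**
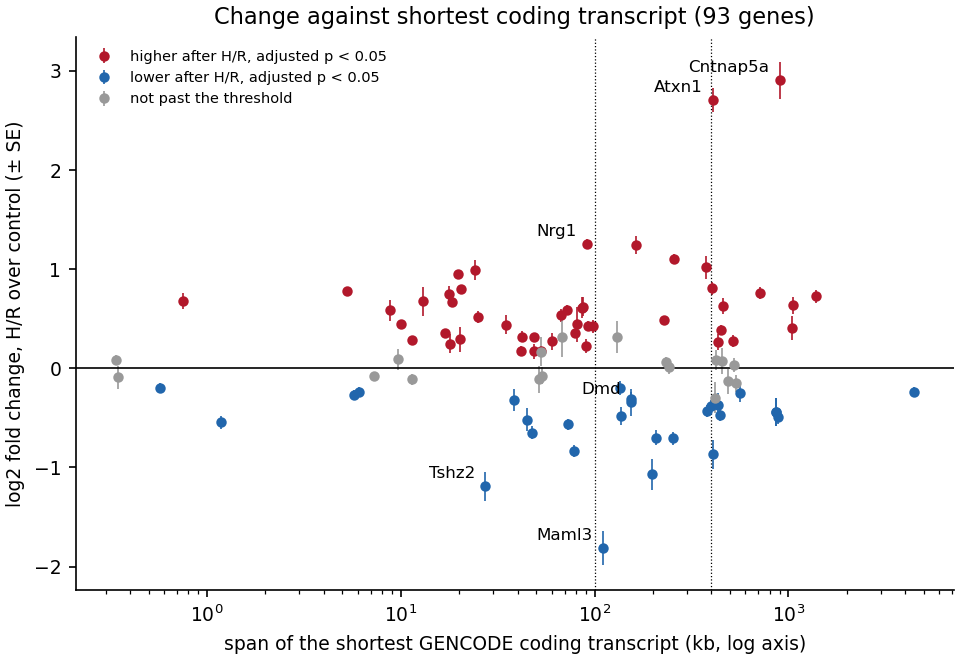
Log2 fold change (H/R over control, y axis, with SE) against the span of the shortest GENCODE coding transcript (x axis, kb, log scale) for the 93 very long genes with one, coloured by the edgeR call, with dotted lines at 100 and 400 kb. Genes that were higher and genes that were lower lie on both sides of each line, with a median of 0.29 below 100 kb and 0.08 at 400 kb or more.

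Genes next to the thresholds of span and counts had mixed values. Just inside 400 kb were Dock4, Dst (400 kb) and Slc39a11 (405 kb), described above. Just outside were Adk (396 kb), adenosine kinase, with a log2 fold change of 0.06, Itpr2 (394 kb), an inositol trisphosphate receptor, with 0.37, and Dip2c (392 kb), with 0.78. Just above 300 summed counts, the long noncoding host gene Snhg14 had 73.9, 81.9 and 80.0 in the control libraries and 57.1, 60.4 and 72.0 in the H/R libraries, and the sorting nexin Snx29 had 62.5, 61.4 and 55.5 in the control libraries and 63.5, 77.7 and 102 in the H/R libraries. Their log2 fold changes were -0.31 ± 0.16 (SE, edgeR adjusted p = 0.0998) and 0.44 ± 0.18 (SE, edgeR adjusted p = 0.0293), and Snx29 lost its call without control library 3 or H/R library 3. Just below were Kalrn (294 counts, -0.60 on the log2 scale) and Brinp3 (282 counts, -0.19).

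Genes of the elongation machinery, which moves or slows RNA polymerase II along a gene, were read from the same fit. Of 55 tested, 26 were higher (47.3%, against 31.0% of all tested genes and 35.1% of those with 300 or more counts). Lower were 17 (30.9%, against 31.8% and 34.3%), and 12 did not pass the threshold. The median log2 fold change was 0.12, and 1 in each direction passed 2-fold. The list was abundant, with a median of 12695 summed counts against 2154.5 over all tested genes. Among genes of 10 to 50 kb with 10000 counts or more, 44.5% were higher and 34.5% lower, so the shares of the list were near these. Ell, an elongation factor of the super elongation complex, had 353, 369.6 and 359 in the control libraries and 765, 770.0 and 709 in the H/R libraries, without overlap (log2 fold change 1.05 ± 0.07, SE, edgeR adjusted p = 9.85e-16). Its partners Eaf1 (0.81), Aff1 (0.63) and Aff4 (0.69) were also higher, whereas Mllt1 (-0.89) was lower. Cdk9, the kinase that releases paused polymerase, had 1006, 1013 and 1022 in the control libraries and 1222, 1261 and 1226 in the H/R libraries (log2 fold change 0.29 ± 0.05, SE, edgeR adjusted p = 9.05e-06). Polr2a, the largest subunit of RNA polymerase II, had 12389.9, 12449 and 12299.9 in the control libraries and 11650.3, 11844 and 11099 in the H/R libraries (log2 fold change -0.10 ± 0.04, SE, edgeR adjusted p = 0.0398). Top1, a topoisomerase that relieves supercoils in long genes, had 8289, 9474 and 8173 in the control libraries and 7766, 7278 and 7436 in the H/R libraries (log2 fold change -0.21 ± 0.05, SE, edgeR adjusted p = 5.80e-04), and Top2b had 2998.8, 3409 and 3048 in the control libraries and 3073, 3008 and 3082 in the H/R libraries (log2 fold change -0.05 ± 0.05, SE, edgeR adjusted p = 0.407). Tcea3, a form of the elongation factor TFIIS, was lower past 2-fold, at 19.9, 11.7 and 11.3 in the control libraries and 4.31, 7.55 and 3.0 in the H/R libraries, which are few counts (log2 fold change -1.52 ± 0.46, SE, edgeR adjusted p = 0.00445). Sfpq, an RNA-binding protein known for its part in transcribing long genes, was lower (-0.91).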

How the data were processed

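RNA-seq was performed on 3 normoxic control and 3 H/R samples of AML12 cells from stranded mRNA libraries with paired ends, mapped to GRCm38. The submitters' processing notes name Trimmomatic 0.36, featureCounts of Subread 1.5.1 and edgeR 3.12.1. The deposited counts are raw whole-number read counts for each gene. The deposited RPKM values were made by the authors from counts, gene length and library total, and the deposited gene length (another column of the authors' tables) is exonic. Spans were the largest End minus the smallest Start of each gene. The members and gene lists were chosen with earlier results of these data known.

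Counts were fitted in R 4.3.3 with edgeR 4.0.16 (filterByExpr, TMM, robust glmQLFit, glmQLFTest), with Benjamini-Hochberg adjustment over 14020 genes. SE were derived from the F statistic. Normalised counts are counts scaled to the mean effective library size. The fit was also run on simulated counts with few changed genes, unlike these data, so that run does not check the error rate here. RefSeq tables (GRCm38.p6) and GENCODE M21 were on the build of the tables. DESeq2 1.42.0, other scalings and filters, the replicate number as a block, GC and length offsets and each library left out were tried. The genes named are the 3 with the most counts in each role list, the 8 with the largest change in each direction that passed the test without overlap, the 5 longest, the 5 with the most counts and those nearest the thresholds, and of the elongation list those past both thresholds with Polr2a, Cdk9, Top1 and Top2b. The result of 1 gene of the elongation list is not reported here. Other genes given with a log2 fold change only, and the promoters printed, were chosen after their values were seen. Total counts of 20438746 to 21854790 per library limit the precision of genes near 300 counts.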

Additional observations from a re-analysis of the deposited data

How the results depend on the processing

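The numbers of very long genes higher and lower kept within 1.5 times of 50 and 28 under DESeq2, the other scalings and filters, the GC and length offset and each library left out. Calls were lost, however, with 45 of the 50 and 21 of the 28 kept by DESeq2. With library totals 40 and 28 were kept, and with upper quartile scaling 42 and 28. With 1 library left out, higher were 45 to 48 and lower 24 to 28 genes, past 2-fold 6 to 7 and 2 to 3, the median of very long genes was 0.19 to 0.22, that of short genes -0.0349 to -0.0178, their difference 0.21 to 0.25 and the rise in the share of counts 0.0606 to 0.0660 percentage points. The replicate numbers did not pair the samples (correlations of deviations -0.03, 0.00 and -0.01), and with the replicate block 49 were higher and 28 lower.

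The median of very long genes was 0.12 with library totals and 0.15 with upper quartile scaling, and that of short genes -0.13 and -0.10. The short median was also -0.0117 with DESeq2, -0.00617 with the GC and length offset, -0.00483 with that offset and the replicate block, -0.0340 with at least 10 counts in every library and -0.0409 for spans under 20 kb. The difference of medians was 0.20 with the offset and 0.20 with the offset and block.

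Other member limits changed the counts by their construction, since fewer or more genes entered. Without exon overlap, 31 were higher, 18 lower and 4 higher past 2-fold, the median was 0.17, the difference 0.19 and the rise in share 0.0322 points. From 300 kb these were 85, 48 and 15, with 5 lower past 2-fold, a median of 0.18 and 0.118 points. From 500 kb they were 31, 13 and 4, with 0 lower past 2-fold by edgeR, a median of 0.28, a difference of 0.30 and 0.0272 points. With 1000 counts or more, 18 were lower and 0 lower past 2-fold, the median was 0.28 and the difference 0.30. The limits below were chosen after seeing the data. For genes with every coding transcript of 400 kb or more, 11 were higher, 8 lower, 2 higher and 0 lower past 2-fold, the median was 0.0751, the difference 0.10 and the rise 0.00335 points. With gaps under 50% of the span, 1 was lower past 2-fold and the rise was 0.0563 points. Lrba, which was not past the threshold, turned to -0.0173 with the GC and length offset, -0.0178 with the offset and block, -0.0368 with library totals and -0.00201 with upper quartile scaling, where the cause was not tested. Of 602 other values of 43 named genes, 15 lost a call and 9 gained one.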
